A study of Mus musculus with 2 samples.

Results

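The imprinted genes followed here, 10 in all and many of them known for a part in growth before and after birth, were read in calf muscle of newborn mice: Cdkn1c, Mest, Ndn, Peg3, Grb10, Gnas, Snrpn, Plagl1, Sgce and Peg10. They were chosen by name, and all 10 of 10 were counted in each library, out of 17859 annotated mouse genes with a count in either. The study measured full-length RNA by long-read sequencing in the gastrocnemius, the large fast muscle of the calf, of male B6CASTF1/J mice aged 4 days, with 2 µg of total RNA per library. B6CASTF1/J is a first-generation cross of the C57BL/6J and CAST/EiJ strains. There is 1 group, untreated as far as the labels say, of 2 libraries called replicate 1 and replicate 2. The labels give them separate biosamples and number the males differently, but list 1 shared donor entry and do not say whether animals were pooled, so n = 2 below counts libraries and the spread between them may be technical. No condition was compared, and the comparisons below are between the libraries, between genes and between forms of 1 gene.

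Imprinted genes are read mainly from the copy inherited from 1 parent, through DNA methylation laid down in the germ line at control regions that the genes of a cluster share. Paternally expressed members such as Mest, Peg3, Plagl1 and Ndn and maternally expressed members such as Cdkn1c and Grb10 include known promoters and brakes of fetal growth, and several fall in level after birth in mouse tissues. At Gnas, separate first exons are spliced to the same downstream exons and are imprinted in different directions. The deposited counts do not separate the C57BL/6J from the CAST/EiJ copy, so no statement on parental origin can be drawn from them.

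Replicate 1 held 998659 counts on annotated mouse genes and replicate 2 held 1026257, and a count of 0 allows up to 3 counts, which is 3.00 and 2.92 CPM, each gene's count scaled to the same library total. The libraries differed in some tissue markers. The 6 epidermal markers summed to 4 counts in replicate 1, with Krt1, Krt5, Krt14, Lor and Krt15 at 0, and to 940 counts in replicate 2, where all 6 were counted. The 5 Schwann cell markers summed to 1447 and 3570 counts, the 6 fibroblast and matrix markers to 36893 and 25668, and the 4 adipocyte markers to 126 and 307. Of the fibroblast and matrix markers, Dcn went the other way, with 814 counts in replicate 1 and 969 in replicate 2. The 4 endothelial markers summed to 417 and 509 counts and the 4 erythroid markers to 253 and 402. The 6 skeletal muscle markers, all present in both libraries, held 10.5% and 12.4% of the counts, and of the 6 neuronal markers 3 and 4 were detected, with 9 and 17 counts. In this bulk tissue, fewer cells of a type and less RNA per cell cannot be told apart.

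The stretches of DNA that the results on first exons turn on are shown here, 300 bases each on GRCm38.p6 (the mm10 assembly) from RefSeq, running from 250 bases before an annotated start to 50 after it, 5′ to 3′. Of the 10 genes, 7 had such a window, with 16 windows in all, and Cdkn1c, Sgce and Peg10 had none. The Gnas windows belong to the start of Nesp (chr2:174284070-174284369, plus strand), of exon 1A (chr2:174327518-174327817) and of Gsα (chr2:174329756-174330055). The Mest windows belong to the start used in this muscle (chr6:30737800-30738099, plus strand) and to an upstream start from which no count came (chr6:30733256-30733555). The Grb10 window (chr11:12037371-12037670, minus strand) belongs to the start of the spliced Grb10 counts. Capitals mark the GC box GGGCGG on either strand, including overlapping matches.
Gnas Nesp: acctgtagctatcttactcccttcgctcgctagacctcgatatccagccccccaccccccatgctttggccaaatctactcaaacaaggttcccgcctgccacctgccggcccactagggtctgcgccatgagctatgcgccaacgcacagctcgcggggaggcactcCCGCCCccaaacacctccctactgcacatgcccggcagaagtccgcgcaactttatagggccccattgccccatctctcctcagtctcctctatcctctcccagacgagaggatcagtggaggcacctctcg
Gnas exon 1A: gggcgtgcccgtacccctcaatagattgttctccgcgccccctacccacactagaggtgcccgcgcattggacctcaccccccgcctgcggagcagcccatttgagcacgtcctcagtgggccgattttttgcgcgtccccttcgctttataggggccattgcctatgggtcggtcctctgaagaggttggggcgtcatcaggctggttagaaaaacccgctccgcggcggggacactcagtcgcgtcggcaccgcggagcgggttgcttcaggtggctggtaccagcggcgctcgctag
Gnas Gsα: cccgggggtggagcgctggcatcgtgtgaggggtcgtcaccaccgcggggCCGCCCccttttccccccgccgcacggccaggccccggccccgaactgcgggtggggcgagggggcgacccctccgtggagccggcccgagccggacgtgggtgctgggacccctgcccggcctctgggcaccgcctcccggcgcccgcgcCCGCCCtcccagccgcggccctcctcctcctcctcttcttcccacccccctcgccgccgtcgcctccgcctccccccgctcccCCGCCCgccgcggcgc
Mest used: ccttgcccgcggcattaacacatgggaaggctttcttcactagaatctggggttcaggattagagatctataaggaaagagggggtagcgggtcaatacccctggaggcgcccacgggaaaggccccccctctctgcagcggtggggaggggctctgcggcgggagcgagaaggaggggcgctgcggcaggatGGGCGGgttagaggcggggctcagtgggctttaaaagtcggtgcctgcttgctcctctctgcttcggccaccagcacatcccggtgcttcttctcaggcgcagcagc
Mest upstream: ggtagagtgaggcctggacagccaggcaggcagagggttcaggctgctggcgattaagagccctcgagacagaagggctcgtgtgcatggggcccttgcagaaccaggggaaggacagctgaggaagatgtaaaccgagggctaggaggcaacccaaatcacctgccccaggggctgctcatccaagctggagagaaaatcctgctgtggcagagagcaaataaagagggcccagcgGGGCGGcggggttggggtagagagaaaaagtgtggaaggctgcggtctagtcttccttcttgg
Grb10 used: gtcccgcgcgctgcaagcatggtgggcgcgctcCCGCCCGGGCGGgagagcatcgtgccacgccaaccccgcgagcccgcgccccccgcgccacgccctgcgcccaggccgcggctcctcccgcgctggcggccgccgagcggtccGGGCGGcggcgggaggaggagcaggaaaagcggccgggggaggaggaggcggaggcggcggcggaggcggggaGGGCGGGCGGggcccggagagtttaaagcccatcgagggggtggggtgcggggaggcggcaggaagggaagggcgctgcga
A GC box was found in 35.9% of the 32544 distinct windows of all genes, and the median window had 7 CpG dinucleotides. The Gsα window held 3 GC boxes and 40 CpG, more CpG than 96.1% of windows, and the used Grb10 window held 5 GC boxes and 45 CpG, more than 98.0%. The Nesp window held 1 GC box and 16 CpG, the exon 1A window 0 and 28. Of the Mest windows, the used one had 17 CpG and the upstream one 8, with 1 GC box in each. The letters TATAAA, read on both strands, were in 13.6% of windows, and once each in the Nesp and exon 1A windows. A match describes letters in the window and not a bound factor.

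The 10 genes together held 8288 counts in replicate 1 and 9085 in replicate 2, or 8299 and 8853 CPM (8576 ± 391, SD, n = 2), which is 0.830% and 0.885% of the counts on annotated genes. Cdkn1c, Gnas and Mest made up 92.8% and 91.8% of these. The remaining 7 genes ranged between 6.92 and 386 mean CPM.

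**Figure D1:**
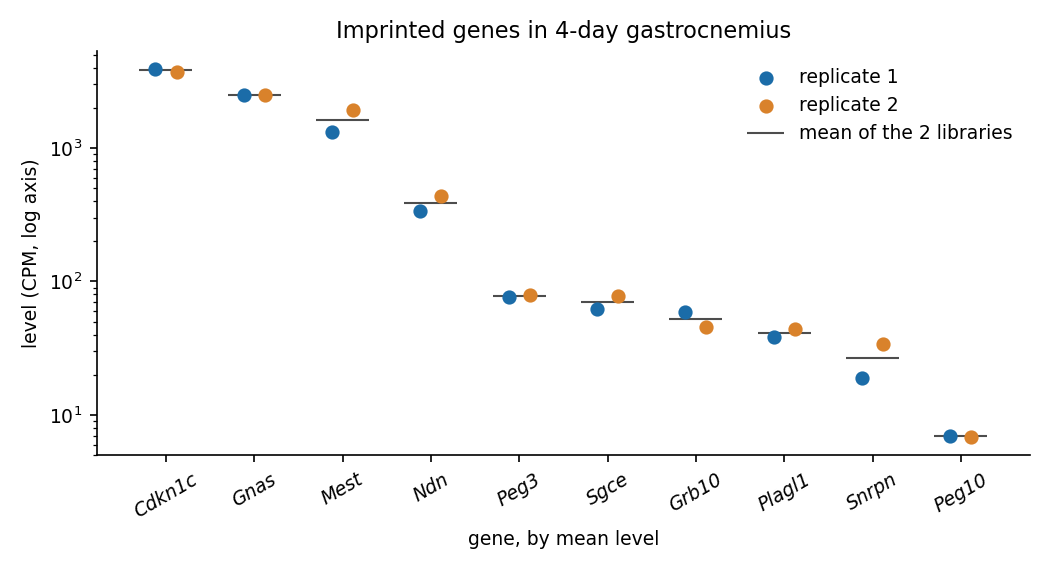
Level of each of the 10 genes in replicate 1 (blue) and replicate 2 (orange), in CPM on a log axis, with a line at the mean of the 2 libraries. Cdkn1c, Gnas, Mest and Ndn lie at 336 CPM or more in both libraries and the other 6 genes at 78.9 CPM or less.

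Cdkn1c (chr7:143458339-143461050 on mm10), which encodes the cyclin-dependent kinase inhibitor p57Kip2, a brake on the cell cycle, was the highest of the 10. It had 3889 counts in replicate 1 and 3832 in replicate 2, or 3894 and 3734 CPM (3814 ± 113, n = 2), rank 22 of 17859 genes. Gnas (chr2:174284320-174346744), which encodes the stimulatory G protein subunit Gsα and several other products, had 2475 and 2537 counts, or 2478 and 2472 CPM (2475 ± 4.41, rank 31). Mest (chr6:30723547-30748465), a member of the α/β-hydrolase fold family, had 1326 and 1973 counts, or 1328 and 1923 CPM (1625 ± 421, rank 41). Ndn (chr7:62346569-62350262), which encodes the MAGE family protein necdin, had 336 and 448 counts, or 336 and 437 CPM (386 ± 70.8, rank 296). In CPM each of these genes stood above the next in both libraries. Per kilobase of the longest annotated transcript, Cdkn1c (2006 CPM per kilobase) stayed highest and Ndn (105) the lowest of the 4. Gnas had 628 and 626 CPM per kilobase and Mest 498 and 721, so these 2 genes changed places between the libraries on that scale. The scale divides by the longest annotated transcript (3.95 kb for Gnas) and not by the length of the forms counted most. The order of Gnas and Mest on it therefore depends on that choice of length.

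The other 6 genes were lower, and their order depends on the scale. Peg3, a zinc finger protein gene, had 77 and 81 counts (78.0 ± 1.29 CPM), and Sgce, which encodes ε-sarcoglycan of the dystrophin-associated complex, had 62 and 80 counts (70.0 ± 11.2 CPM). Their values overlapped between the libraries. Grb10, an adaptor that restrains insulin and insulin-like growth factor receptor signalling, had 59 and 47 counts (52.4 ± 9.39 CPM). Plagl1, a zinc finger transcription factor gene, had 38 and 45 counts (40.9 ± 4.10 CPM). Snrpn, which encodes the spliceosomal protein SmN, had 19 and 35 counts (26.6 ± 10.7 CPM). Peg10, derived from a retrotransposon and known for its need in the placenta, had 7 counts in each library (6.92 ± 0.133 CPM), rank 9963. Per kilobase of the longest annotated transcript, with the same limit, the order of the 6 was Sgce (15.9), Snrpn (12.8), Grb10 (10.4), Peg3 (8.97), Plagl1 (7.79) and Peg10 (1.04). Per kilobase, the values of Snrpn (9.16 and 16.4) overlapped those of Sgce (14.1 and 17.7) and Grb10 (11.7 and 9.05). The values of Grb10 also overlapped those of Peg3 (8.87 and 9.08), which was the higher of the pair in replicate 2. Peg10 was the lowest on both scales.

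Between the libraries, Mest and Ndn differed by more than counting error and the other 8 genes were not called. Fisher's exact test (two-sided, Benjamini-Hochberg adjustment over 11027 genes, threshold 0.05) called 2 of the 10 genes, both lower in replicate 1, against 9.74% of all genes tested in either direction, 5.25% lower and 4.49% higher. Mest was lower in replicate 1 by a ratio of 0.691 (95% interval 0.644 to 0.741, log2 ratio -0.53, adjusted p = 1.9e-23 by Fisher's exact test). Ndn was lower by a ratio of 0.771 (0.667 to 0.890, log2 ratio -0.38, adjusted p = 0.0060 by Fisher's exact test). The test holds counting error only and compares 2 libraries, not 2 conditions. With a preset biological coefficient of variation of 0.1 or 0.2 in edgeR's exact test, 0 of the 10 genes were called (Mest adjusted p = 0.22 and 1.0), against 1.56% and 0.508% of all genes. Replicate 2, with the higher Mest and Ndn, was also higher in every marker list given above except the fibroblast and matrix markers. These summed lower there, although Dcn among them was higher. The part of the markers in the difference was not tested. Cdkn1c (ratio 1.04, interval 0.997 to 1.09) and Gnas (1.00, 0.948 to 1.06) were the most tightly bounded of the rest, and Peg10 the least (1.03, 0.308 to 3.43).

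The transcript class given with each count tells how much of a gene was read along its full splice structure. By their usual meaning, Known models match an annotated transcript and NIC models join annotated splice sites in combinations outside the annotation. NNC models use at least 1 unannotated site, ISM models hold part of an annotated structure, and the remaining models are Genomic. The labels did not follow the annotation used here throughout. In replicate 1, 769 Cdkn1c counts used an unannotated acceptor, while 96 were in NNC models. Over 5949 genes with at least 50 counts, the median gene had 80% of its counts in Known models and 1.15% in Genomic ones. Mest (86.7% and 85.5%) and Gnas (82.7% and 81.1%) were mostly Known, and Ndn, a gene without introns, was Known in 335 of 336 and 447 of 448 counts. Cdkn1c stood at 34.4% and 36.8% Known, with 61.3% of its counts over both libraries in NIC and NNC models, and 2.74% of the 5949 genes had more.

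Peg3, Grb10 and Peg10, whose longest annotated transcripts measure 8.69, 5.06 and 6.67 kb, had many counts in single-exon models inside their last exon. Of the Peg3 counts these were 70 of 77 in replicate 1 and 81 of 81 in replicate 2, and Genomic models made up more of a gene's counts than the 95.6% of Peg3 in only 0.202% of the 5949 genes. For Grb10, 26 of 59 and 29 of 47 counts were single-exon models within the last exon, and for Peg10 7 of 7 and 6 of 7. Genes with a longest transcript of 5 kb or more had a median of 22.2% of counts in ISM or Genomic models, against 4.39% for genes under 2.5 kb. Counted by Known, NIC and NNC models alone, Peg3 had 7 and 0 counts, a mean of 4.01 CPM against 78.0 CPM over all classes. On that basis Grb10 had 20.4 CPM, Plagl1 22.5 CPM and Peg10 0 and 1 counts.

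**Figure D2:**
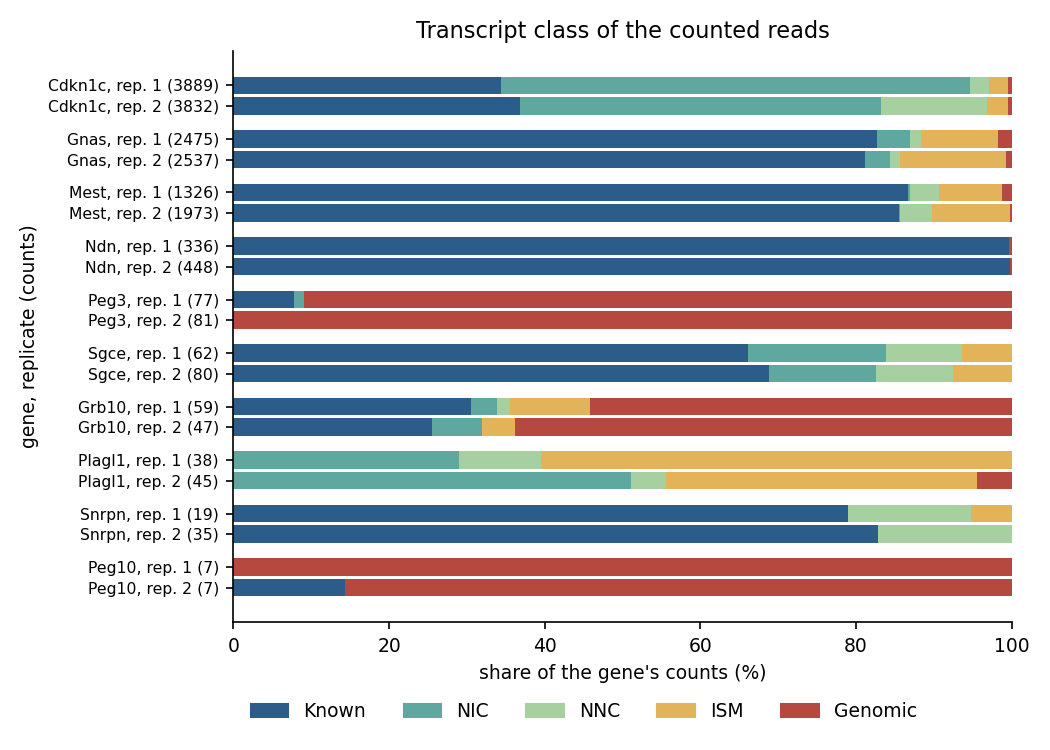
Share of each gene's counts in the 5 transcript classes, in percent, for replicate 1 (upper bar of each pair) and replicate 2 (lower bar), with the gene's counts in brackets. Known models lead at Gnas, Mest, Ndn, Sgce and Snrpn, NIC models at Cdkn1c, and Genomic models at Peg3, Grb10 and Peg10.

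Gnas has 5 groups of annotated first exons, of which 4 carried nearly all its counts. Going along the gene, these are Nesp, which encodes the neuroendocrine secretory protein 55 and is expressed from the maternal copy, XL, which gives the long XLαs form from the paternal copy, exon 1A, a paternal and untranslated first exon, and Gsα, which is read from both copies in most tissues. Their starts lie 13.5, 43.3 and 45.7 kb after that of Nesp. Under the rule used for all genes, a model belongs to a first exon when its splice donor is the donor of an annotated first exon and of no internal exon. By that rule Nesp had 347 of 2475 counts in replicate 1 (14.0%, 95% Clopper-Pearson interval 12.7 to 15.5) and 251 of 2537 in replicate 2 (9.89%, 8.76 to 11.1). XL had 116 (4.69%, 3.89 to 5.59) and 132 (5.20%, 4.37 to 6.14), and exon 1A had 46 (1.86%, 1.36 to 2.47) and 40 (1.58%, 1.13 to 2.14). The rule can read 3 of the 5 groups. The donors of Gsα and of the remaining group, between exon 1A and Gsα, are also those of internal exons of annotated transcripts, so both have 0 counts by construction, and 1860 and 1966 counts with such a shared donor stayed unassigned. By start within 100 bases, the remaining group had 1 count in replicate 1 and 0 in replicate 2.

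Placed by a start within 100 bases of an annotated start, Gsα had 1658 counts in replicate 1 (67.0%) and 1736 in replicate 2 (68.4%), and Nesp 535 (21.6%) and 463 (18.2%). Placed by donor, with Gsα and the Nesp models that keep their first intron added, the shares were 66.8% (64.9 to 68.7) and 68.3% (66.5 to 70.2) for Gsα and 21.6% (20.0 to 23.3) and 18.2% (16.8 to 19.8) for Nesp. In level this is 1656 and 1690 CPM for Gsα and 536 and 451 CPM for Nesp. Both ways order the first exons as Gsα, Nesp, XL and exon 1A, with no overlap between neighbours in either library. These intervals, and all others here, cover counting error only, and the ends of Known models are those of the annotation and not of the reads.

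**Figure D3:**
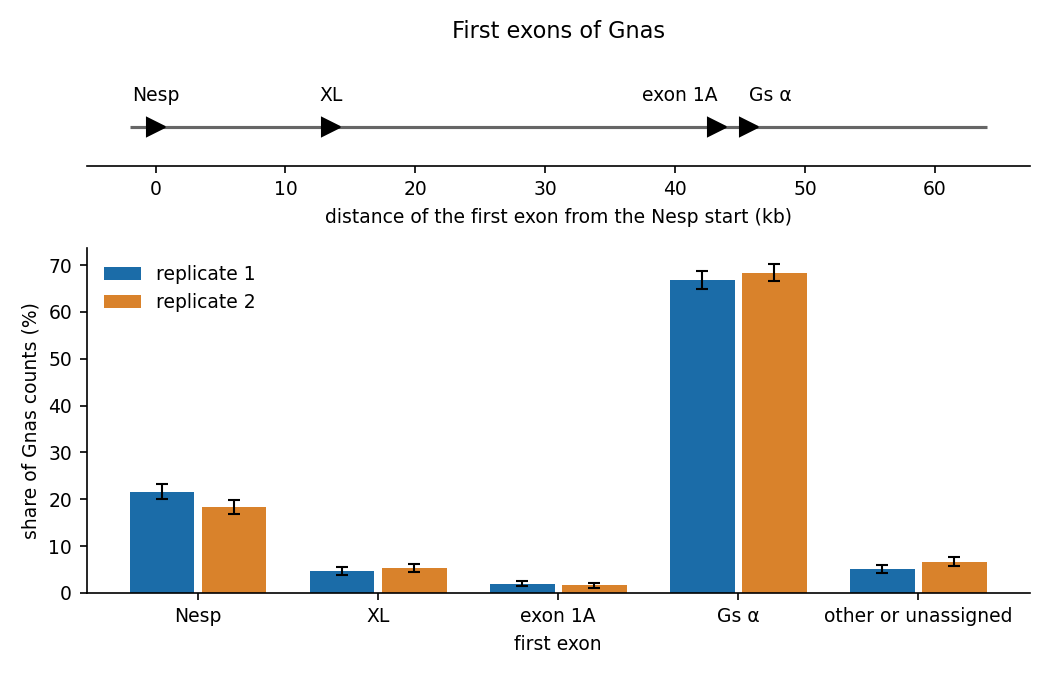
Top, distance of the 4 first exons of Gnas from the Nesp start in kb. Bottom, share of Gnas counts from each first exon in replicate 1 (blue) and replicate 2 (orange), in percent with 95% Clopper-Pearson intervals; Gsα holds 66.8% and 68.3%, Nesp 21.6% and 18.2%, and exon 1A under 2.00%.

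Within the Nesp counts, the first intron was spliced in 347 of 535 counts in replicate 1 (64.9%, 60.6 to 68.9) and in 251 of 463 in replicate 2 (54.2%, 49.6 to 58.8), and the intervals did not overlap. A Nesp exon of 96 bases (chr2:174288491-174288586) was included in 52 counts against 491 that skipped it in replicate 1 (9.58%), and in 25 against 440 in replicate 2 (5.38%). That difference was not called (Fisher's exact test, adjusted p = 1.0 over 51400 exons). On the opposite strand, Nespas, the antisense RNA of the Nesp region, had 3 and 2 counts, and Gm20721, annotated across Gsα, had 6 and 6. How the authors assigned strand is not given in the sources used here, so antisense counts are uncertain.

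Exon 3 of Gnas, a cassette of 45 bases or 15 codons (chr2:174336747-174336791), divides the long and short forms of Gsα. Exon 4 can in addition start 3 bases earlier (chr2:174341650-174341679 shown, the added bases in capitals). Both sequences are from the annotated transcripts, plus strand, and are given because the results below turn on them.
Gnas exon 3: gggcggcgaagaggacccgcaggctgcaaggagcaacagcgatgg
Gnas exon 4 start: TAGtgagaaggccactaaagtgcaggacat
Over all first exons, exon 3 was joined to exon 2 in 1894 of 2340 informative counts in replicate 1 (80.9%) and 1892 of 2361 in replicate 2 (80.1%).

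Inclusion of exon 3 went with the first exon. Nesp had it in 484 of 527 (91.8%, 89.2 to 94.0) and 412 of 456 (90.4%, 87.3 to 92.9), XL in 88 of 92 (95.7%, 89.2 to 98.8) and 112 of 115 (97.4%, 92.6 to 99.5), and exon 1A in 41 of 45 (91.1%, 78.8 to 97.5) and 37 of 40 (92.5%, 79.6 to 98.4). Gsα had it in 1263 of 1649 counts in replicate 1 (76.6%, 74.5 to 78.6) and in 1308 of 1723 in replicate 2 (75.9%, 73.8 to 77.9). Nesp, XL and exon 1A stood above Gsα in both libraries, by 14.4 to 21.5 percentage points. A two-sided Fisher's exact test against Gsα within each library, chosen after the values were seen and adjusted over the 6 tests, gave adjusted p = 2.0e-15 and 3.3e-12 for Nesp, 3.0e-06 and 1.2e-09 for XL, and 0.019 and 0.016 for exon 1A. These tests compare reads within a library.

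**Figure D4:**
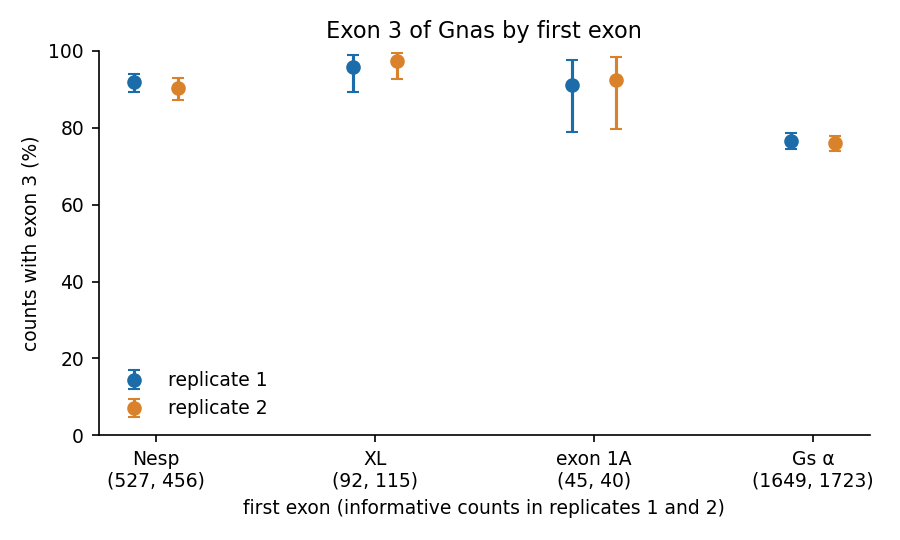
Share of informative Gnas counts that include exon 3, in percent with 95% Clopper-Pearson intervals, by first exon, in replicate 1 (blue) and replicate 2 (orange); the numbers under each first exon are its informative counts. Nesp, XL and exon 1A lie between 90.4% and 97.4%, and Gsα at 76.6% and 75.9%.

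The earlier start of exon 4 was found only without exon 3. Of the counts that skipped exon 3, 311 of 446 in replicate 1 (69.7%, 65.2 to 74.0) and 316 of 469 in replicate 2 (67.4%, 62.9 to 71.6) carried the 3 added bases. Of the counts with exon 3, 0 of 1894 and 0 of 1892 did, with an upper Clopper-Pearson limit of 0.195% in each library. No annotated Gnas transcript (0) holds both. For Nesp counts without exon 3 the share with the added bases was 28 of 43 (65.1%) and 28 of 44 (63.6%), close to 278 of 386 (72.0%) and 281 of 415 (67.7%) for Gsα, with overlapping intervals.

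Mest was read from 1 of its 4 annotated first exons. The first exon at chr6:30738050-30738335 took 1202 of 1326 counts in replicate 1 (90.6%, 89.0 to 92.2) and 1770 of 1973 in replicate 2 (89.7%, 88.3 to 91.0). None of the 3 first exons upstream of it, which start 4.60, 6.08 and 14.5 kb before it, had a spliced count (0 of 1326 and 0 of 1973); by start position 1 count in replicate 2 fell there. Of the other counts, 103 and 160 began at another exon, 17 and 31 were single-exon models, and 4 and 12 had a first donor shared with an internal exon. The donors of all 4 first exons can be read by the rule. Mest-211, with 12 exons, was the leading transcript at 1150 of 1202 spliced Known, NIC and NNC counts (95.7%) and 1686 of 1771 (95.2%), against a median of 85.8% for the leading transcript of 5165 genes. An unannotated intron of 1266 bases had 20 and 23 counts and another of 630 bases had 25 and 36. Copg2, which runs into the end of Mest from the opposite strand, had 29 and 21 counts.

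The spliced Grb10 counts that could be placed by donor began at a single first exon of the 9 annotated groups, at chr11:12037192-12037401, the next to the 5′ most group, whose window is given above. It took 22 of 59 counts in replicate 1 (37.3%, 25.0 to 50.9) and 15 of 47 in replicate 2 (31.9%, 19.1 to 47.1). In mice Grb10 is known to be read from the maternal copy in most tissues and from the paternal copy, at separate downstream first exons, in neurons. The rule can read 6 of the 9 groups, and the other 5 of these had 0 counts by donor. The remaining 3 groups, all downstream of the used one, share their donor with an internal exon and have 0 by construction; 3 and 0 Grb10 counts had such a shared donor. By start position, 4 counts in replicate 1 and 1 in replicate 2 fell at 3 of the downstream groups, so use of these first exons is not settled by the donor rule. An annotated transcript of 17 exons was the leading spliced structure, with 18 and 12 counts. Single-exon models, which carry no first exon, held 54.2% and 63.8% of the counts.

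Peg3 could be read for its first exon in replicate 1 alone. There, 7 of 77 counts (9.09%, 3.73 to 17.8) started at the 5′ most first exon (chr7:6730258-6730431, minus strand), 6 of them as an annotated transcript of 9 exons. Replicate 2 had 0 of 81, which allows up to 3 counts, and the downstream first exon had 0 in both libraries. Zim1, the zinc finger gene that follows Peg3, had 46 and 40 counts, and Usp29, which starts 147 bases from Peg3 on the opposite strand, had 9 and 10.

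The coding exon 2 of Cdkn1c was spliced in several ways. Cdkn1c-201, the annotated transcript whose sites serve as the base below, was the leading structure at 1008 of 3774 Known, NIC and NNC counts in replicate 1 (26.7%, 25.3 to 28.2) and 1064 of 3709 in replicate 2 (28.7%, 27.2 to 30.2), and 2.87% of 5165 genes had a lower leading share. That share and its place among the genes hold for exact splice sites. With splice sites matched within 5 bases the leading share of Cdkn1c was 38%, and its place among the genes is not given for that setting. Of the 10 genes, 4 had the 20 counts in each library that the test of leading transcripts asked for, and 0 of 4 were called between the libraries, against 0.484% of genes. In all, 91 spliced structures of Cdkn1c were counted, 45 of them in both libraries.

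The start of exon 2 varied between 3 acceptors. Exon 2 began at chr7 position 143460678, as in Cdkn1c-201, in 2294 of 3689 replicate 1 counts (62.2%, 60.6 to 63.8) and 2242 of 3636 replicate 2 counts (61.7%, 60.1 to 63.2). It began 3 bases further in, at an unannotated acceptor, in 769 (20.8%, 19.5 to 22.2) and 759 (20.9%, 19.6 to 22.2). It began 38 bases earlier, as in Cdkn1c-202, in 621 (16.8%, 15.6 to 18.1) and 632 (17.4%, 16.2 to 18.7), and these counts contain an annotated start codon 39 bases, or 13 codons, before the one in all 3 forms. The intervals of the libraries overlapped for each site. The stretch is shown from the earlier acceptor (chr7:143460666-143460716, minus strand) with the 2 annotated start codons in capitals.
Cdkn1c exon 2 start: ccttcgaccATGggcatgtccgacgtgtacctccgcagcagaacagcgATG

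The end of exon 2 was split almost evenly between 2 donors. The annotated donor of the leading structure was used in 1948 of 3847 counts in replicate 1 (50.6%, 49.0 to 52.2) and 2131 of 3800 in replicate 2 (56.1%, 54.5 to 57.7). A donor 36 bases further on, annotated only in Cdkn1c-205, was used in 1897 (49.3%, 47.7 to 50.9) and 1669 (43.9%, 42.3 to 45.5). The intervals of the libraries did not overlap here, but the difference was not tested. The 36 bases add 12 codons in frame with 0 stop codons among them (chr7:143459759-143459794, minus strand).
Cdkn1c exon 2 extension: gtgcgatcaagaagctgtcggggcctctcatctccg
The further donor was used to a like extent after each of the 3 acceptors, in 48.4%, 50.5% and 51.7% of counts in replicate 1 and in 42.9%, 44.2% and 47.1% in replicate 2, with overlapping intervals within a library.

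**Figure D5:**
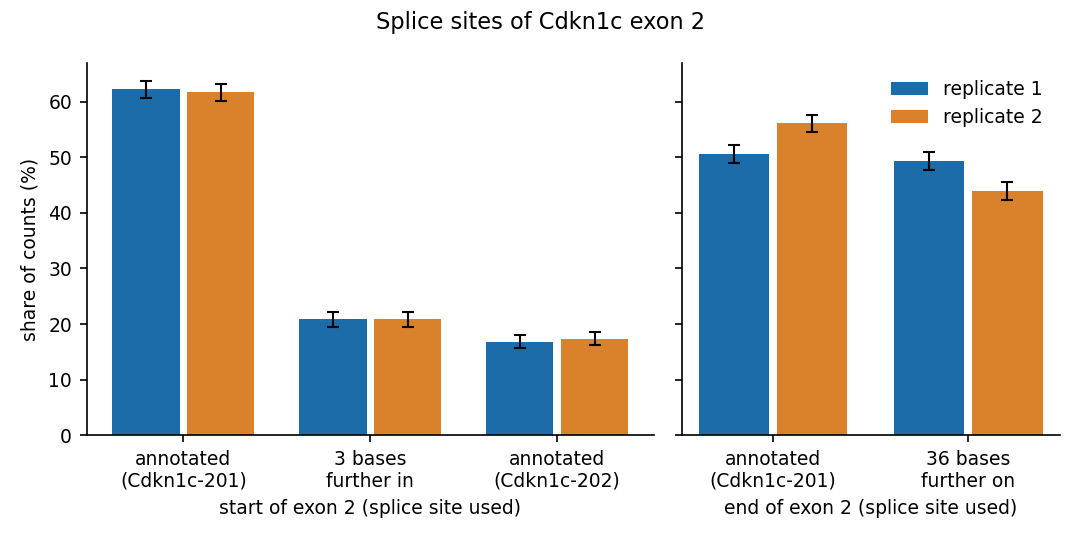
Share of Cdkn1c counts that use each splice site at the start (left) and end (right) of exon 2, in percent with 95% Clopper-Pearson intervals, in replicate 1 (blue) and replicate 2 (orange). The start sites hold about the same shares in both libraries, while the donor 36 bases further on holds 49.3% in replicate 1 and 43.9% in replicate 2.

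Some Cdkn1c counts also lacked a stretch inside exon 2. A stretch of 84 bases, or 28 codons, was modelled as an unannotated intron. It was missing from 301 of 3689 replicate 1 counts (8.16%) and 302 of 3636 replicate 2 counts (8.31%). Another such intron of 59 bases, which is not a multiple of 3, was missing from 158 (4.28%) and 156 (4.29%). Both begin with GT and end with AG, but whether they were removed by splicing was not tested. The bases lie in a repetitive coding stretch, and 4 bases at the ends of the intron of 84 bases and 2 at those of the intron of 59 bases are repeated, so that the exact site cannot be placed within them. The longer one is shown with 12 bases on either side and the missing bases in capitals (chr7:143460015-143460122, minus strand).
Cdkn1c intron inside exon 2: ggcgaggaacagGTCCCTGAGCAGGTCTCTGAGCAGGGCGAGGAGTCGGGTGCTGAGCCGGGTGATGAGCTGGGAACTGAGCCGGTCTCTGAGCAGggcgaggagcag
The libraries named some equal structures differently: 4 structures with 442 and 483 counts were NIC in replicate 1 and NNC in replicate 2, so the class shares of Cdkn1c are not compared between them.

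Among the other spliced genes, Sgce had 3 exons of intermediate inclusion. Sgce-205 led with 25 of 57 spliced Known, NIC and NNC counts in replicate 1 (43.9%) and 42 of 74 in replicate 2 (56.8%), with overlapping intervals. Its exon of 27 bases (chr6:4690469-4690495, minus strand) was included in 47 of 59 informative counts (79.7%, 67.2 to 89.0) and 64 of 74 (86.5%, 76.5 to 93.3). An unannotated exon of 69 bases (chr6:4712122-4712190) was included in 13 of 57 (22.8%, 12.7 to 35.8) and 18 of 74 (24.3%, 15.1 to 35.7). An annotated exon of 108 bases was included in 3 counts against 53 that skipped it in replicate 1 (5.36%, 1.12 to 14.9). In replicate 2 it was included in 8 against 66 (10.8%, 4.78 to 20.2). All 3 lengths are multiples of 3. The exon of 27 bases, from the annotated transcript, reads as follows.
Sgce exon of 27 bases: ggaaaagagagacatgcaaaccccaga
Versions of an exon with different boundaries count apart here, as for Cdkn1c exon 2. Of 73 such exons of the 10 genes that could be tested, 5 were included at 5 to 95% in both libraries (6.85%), against 3.88% of 51400 exons of all genes. The Sgce exon of 108 bases in replicate 1 and the Nesp exon in replicate 2 (5.38%) lay just above the 5% limit. These 5 were the 3 Sgce exons, Gnas exon 3 and the Nesp exon, and 0 of the 73 were called between the libraries by Fisher's exact test, against 0.00973% of all exons; 1 of them, the Nesp exon, had an unadjusted p under 0.05 (0.013).

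Snrpn was read from its downstream first exon (chr7:60005036-60005111, minus strand), which starts 18 of 19 and 35 of 35 counts, while the upstream first exon had 0. Snrpn-201, with 10 exons, took 15 and 29 counts, and a form with 1 more, unannotated exon of 44 bases took 3 and 6. Snurf, a second reading frame annotated on the same first exons, had 0 counts under its own name, so its RNA cannot be told apart from that of Snrpn here. By first donor, 15 of 38 and 25 of 45 Plagl1 counts began at the first exon at chr10:13090691-13091024. Of its 4 first-exon groups, 3 can be read by donor, and 3 and 1 counts had a donor shared with an internal exon. In the last exon of Plagl1, a stretch of 116 bases (chr10:13130701-13130816) was modelled as an unannotated intron. It was missing from 38 of 38 and 43 of 45 counts. No Plagl1 count was a Known model. Whether the stretch was removed by splicing was not tested. Sgce and Peg10 start 99 bases apart on opposite strands; by first donor, 55 of 62 and 73 of 80 Sgce counts began there, against 0 and 1 of 7 Peg10 counts.

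Other imprinted genes around the 10 were mostly low. Of a list of 61 imprinted genes, 59 were in the annotation under that symbol, 54 had a count and 45 had the 10 counts needed for the library test, of which 4 were called higher and 4 lower in replicate 1 (8 of 45, against 9.74% of all genes). Their median log2 ratio was -0.08, against 0.04 over all genes tested. Of 30 neighbours of the 10 genes that were listed for naming, 28 were annotated, the highest was Cobl, an actin nucleator gene near Grb10, at 186 and 212 counts (196 ± 14.4 CPM), and 3 had no count (Phlda2, Snurf and Zfp264).

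Beside Cdkn1c, the long noncoding RNA Kcnq1ot1 that silences the paternal cluster had 3 and 12 counts, Kcnq1, a potassium channel gene, had 17 and 11, and Slc22a18 had 1 and 0. Nap1l4, a histone chaperone gene at the edge of that cluster, had 157 and 112 (log2 ratio 0.52, called). Cd81, a tetraspanin gene, lies next to Kcnq1 (chr7:143052739-143067934) and was not among those 30, but was higher than each of them, at 893 and 1457 counts (1157 ± 372 CPM), and was called lower in replicate 1 (log2 ratio -0.67). Beside it, Tssc4 had 32 and 45 counts and Ascl2 0 and 2. The cluster around Ndn and Snrpn had Magel2 at 8 and 6 counts, Mkrn3 at 4 and 7, Peg12 at 5 and 2, Snhg14 at 12 and 17 and the ubiquitin ligase gene Ube3a at 55 and 39. Near Mest, Klf14 had 14 and 24 counts and Cep41 had 22 and 17. Ddc near Grb10 had 14 and 13, and Phactr2 near Plagl1 had 22 and 29. In the cluster of Sgce and Peg10, Casd1 had 51 and 57 counts, Asb4 26 and 31, Pon2 20 and 27, Ppp1r9a 20 and 14, Calcr 4 and 4, Pon3 2 and 1 and Tfpi2 0 and 2. Outside those 30, the 5 highest list genes were H19 (4808 ± 366 CPM), Dlk1 (2082 ± 127), Cd81, Meg3 (919 ± 143) and Dcn (880 ± 91.3). Dcn is also among the fibroblast and matrix markers given above. Whether the list genes are imprinted in this muscle was not tested. H19 and Meg3 were called higher in replicate 1, as was Rtl1, and Cd81 and Dcn lower, as were Nnat and Commd1; Rtl1, Nnat and Commd1 are named because they were called.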

How the data were processed

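In 2 long-read libraries of 1 group, values were computed from tables that give, per transcript model, a raw count of reads, deposited by the authors with an exon model on mm10, in TALON format with GENCODE M21 identifiers, per the file headers and the readme beside the files. The aligner, its settings and how strand was assigned were not given in the sources used here. For each gene, counts of every class were added and divided by the library total on annotated mouse genes (CPM). Unannotated loci (3.88% and 5.36% of counts) and spike-ins (2.47% and 1.37%) stayed out. Structures were matched between libraries by intron chain. An exon counted as included when a model had its exact boundaries inside the model, and as skipped when an intron spanned it. Shares carry exact Clopper-Pearson 95% intervals, and library tests are two-sided Fisher's exact tests over all genes (at least 10 counts in sum), leading transcripts or internal exons (at least 20 counts in each library), with Benjamini-Hochberg adjustment at 0.05 and a prior count of 0.5 in log2 ratios. Simulated counts over 10935 genes held counting error only, and 50 genes were changed at each fold, all at 50 CPM or more. The gene test called 100% of genes changed 2-fold, 72.0% of those at 0.5-fold and 0.0652% of unchanged genes. Plagl1, Snrpn and Peg10 lie below the level of the changed genes. Other settings used edgeR 4.0.16 and DESeq2 1.42.0 under R 4.3.3, with scipy for the tests. Named genes were the 10, their neighbours, 30 listed genes near them and the 5 highest others of the list of 61. Tssc4 and Ascl2 were added after their values were seen. The members and lists were chosen with earlier results of these data known. P-values measure only the spread of reads, which may be technical.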

Additional observations from a re-analysis of the deposited data

Results flagged for a closer look

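Counts on loci outside the annotation, which enter no comparison above, lay on the strand opposite to 4 of the 10 genes with more than 3 counts in each library, the most that a count of 0 allows. A single-exon locus within Plagl1 (chr10:13113444-13115597) had 75 counts in replicate 1 and 109 in replicate 2, 184 in all, which is more than the 38 and 45 counts of Plagl1 itself. A locus over the last exon of Grb10 (chr11:11930508-11933094) had 26 and 19 counts (45 in all), and a second one further upstream in Grb10 (chr11:12003194-12009494) had 4 and 4 (8 in all). A locus within Sgce (chr6:4740207-4746394), on the strand of Peg10 and before its start, had 11 and 28 counts (39 in all), beside 7 and 7 for Peg10. A locus over the XL first exon of Gnas (chr2:174296729-174299082) had 5 and 4 counts (9 in all). No source used here says how the authors assigned strand, so the strand of these loci is uncertain. The single-exon Grb10 models over the same last exon (26 and 29 counts) hold no splice site either. Their strand, and with it that part of the Grb10 level, shares this doubt.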

How the results depend on the processing

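The summed level of the 10 genes stayed within its spread under TMM and DESeq2 size factors. With Known, NIC and NNC models alone it was 8963 CPM against 8576 ± 391 CPM, close to the edge of that spread. Cdkn1c (3814 to 4230 CPM), Gnas, Peg3, Grb10, Plagl1 and Peg10 then moved beyond their own spread. With 2 libraries, either library alone lies within 1 SD of the mean by construction, so that setting tests nothing. In the main setting, 25 of 5165 leading transcripts were called. With a minimum of 10 counts 25 of 7160 were called, and with splice sites within 5 bases 25 of 5165. The leading share of Cdkn1c rose from 27.7% to 38% with splice sites within 5 bases. Preset coefficients of variation of 0.1 and 0.2 left 172 and 56 genes called between the libraries in place of 1074, and ended the calls of Mest and Ndn. Placing Gnas by start within 100 bases gave Nesp 19.9% and Gsα 67.7% of Gnas counts, as means of the libraries. With Known, NIC and NNC models alone, XL was 5.69%, exon 1A 1.97% and the used first exon of Mest 99.8%. On that basis the used first exon was 97.6% for Grb10 and 100% for Peg3 (replicate 1 only, with 0 such counts in replicate 2). With these models the 61-gene list summed to 11702 CPM against 12088. Among the exons of all genes, 9 of 47602 tested were then called between the libraries, instead of 5 of 51400. Either library alone gave 8299 and 8853 CPM for the 10 genes, 12056 and 12120 CPM for the list, 9.89% and 14.0% for Nesp and 0% and 9.09% for Peg3. The levels per kilobase, the Gnas shares by donor with Gsα added and the tests of exon 3 by first exon were chosen after seeing the data. No paired analysis was possible because there is 1 group. Depth limits Peg10, Snrpn, Plagl1, Grb10, Sgce and Peg3, with 7 to 81 counts per library.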
